A study of Mus musculus with 11 samples.

Results

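The genes described here encode the enzymes that write, copy and remove methylation of cytosine in DNA, with the proteins that guide them: Dnmt1, Dnmt3a, Dnmt3b, Dnmt3l, Uhrf1, Uhrf2, Tet1, Tet2, Tet3 and Tdg. They were taken by name from the gene tables, and all 10 are listed for both cell types, among 34570 genes listed for at least 1 of them. The tables hold RNA-seq of poly(A) RNA from wild-type (WT) and Atxn7l3-/- mouse embryonic stem cells (mESCs) and mouse embryonic fibroblasts (MEFs), made to ask how loss of ATXN7L3, the adaptor that activates the histone H2B deubiquitylation modules, changes transcript levels. Atxn7l3+/+ mESCs gave 2 libraries and Atxn7l3-/- mESCs 3, and Atxn7l3+/+ and Atxn7l3-/- MEFs gave 3 each. 1 further WT mESC dataset that the study set aside was not analysed here. All cells came from a DBA/2 x C57BL/6 cross. Each mESC line came from its own blastocyst, was kept on feeder cells for a pair of passages and was then grown without feeders in 15% FCS with LIF, 1 µM PD0325901 and 3 µM CH99021. Each MEF culture came from its own E10.5 embryo, from which head and gut had been removed, and was grown in 10% FCS, so it is a mixture of the embryo's remaining cells. The Atxn7l3 null allele is constitutive and was made by recombination of a targeted allele carried in the germ line.

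In mammals, DNMT1 restores methylation on the new strand after replication and is brought to hemimethylated sites by UHRF1, whereas DNMT3A and DNMT3B, with their inactive cofactor DNMT3L, place methyl groups on sites that had none. TET1, TET2 and TET3 oxidize 5-methylcytosine, and the glycosylase TDG excises the oxidized forms so that base excision repair can put back plain cytosine. Mouse embryonic stem cells are known for high Dnmt3b, Dnmt3l, Tet1 and Tet2, and inhibition of MEK and GSK3, as in the medium used for these mESCs, is known to lower their DNA methylation. Only RNA was measured here, not methylation and not protein.

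The libraries held 34515342 to 49602605 counts each. Levels are given as CPM, counts scaled to a library of fixed size, after scaling by the trimmed mean of M-values over the 11 libraries. Atxn7l3 itself was at 196 and 202 CPM in WT mESCs and at 0.83 to 3.33 CPM in Atxn7l3-/- mESCs, while in MEFs it was at 86.4 to 117 CPM in WT and at 55.4 to 73.2 CPM in Atxn7l3-/- cultures, lower in all 3 but well above the level in Atxn7l3-/- mESCs. The gene counts do not show which exons the remaining reads come from. They therefore check the genotype labels of the mESC libraries but not those of the MEF libraries, which are named by their label. The paper reports that western blots found no ATXN7L3 protein in its Atxn7l3-/- mESCs and MEFs. Whether the blotted MEF cultures were those sequenced is not stated. The 7 mESC markers summed to between 3210 and 4215 CPM in mESCs and to between 43.9 and 99.4 CPM in MEFs, with Pou5f1 and Zfp42 at 0 or not listed in MEFs. The 10 MEF markers summed to between 21280 and 56540 CPM in MEFs, to 1410 and 2464 CPM in WT mESCs and to between 3053 and 5173 CPM in Atxn7l3-/- mESCs. The 4 Y-linked genes Ddx3y, Eif2s3y, Kdm5d and Uty summed to between 146 and 534 CPM in 8 libraries but to 6.90 and 1.37 CPM in Atxn7l3-/- mESC replicates 1 and 2 and to 0.828 CPM in WT MEF replicate 3. These 3 libraries stand apart from the rest of their groups, and each count of changed enzyme genes is therefore also given without them. A lower level in a culture can come from fewer cells of a type or from less RNA per cell, and bulk RNA cannot tell these apart. P-values measure the spread between these lines and cultures only.

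The starts of the genes whose levels differed most between the cell types are shown first, because CpG sites are the substrate of these enzymes and their own promoters differ in CpG content. The windows are from RefSeq on GRCm38.p6, run 5′ to 3′ from 250 bases before to 50 bases after an annotated start, and have each CpG in capitals. Dnmt3b is at chr2:153649199-153649498, plus strand. Dnmt3l is shown by the first of its 3 annotated starts, at chr10:78042037-78042336, plus strand. Tet1 is at chr10:62887275-62887574, minus strand, and Tet2 at chr3:133544341-133544640, minus strand.
Dnmt3b: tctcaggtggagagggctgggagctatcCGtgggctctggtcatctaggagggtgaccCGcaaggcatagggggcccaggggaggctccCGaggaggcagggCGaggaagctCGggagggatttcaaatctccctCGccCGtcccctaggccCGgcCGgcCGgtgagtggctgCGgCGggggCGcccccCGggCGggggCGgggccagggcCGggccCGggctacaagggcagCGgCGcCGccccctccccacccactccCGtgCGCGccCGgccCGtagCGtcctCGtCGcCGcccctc
Dnmt3l: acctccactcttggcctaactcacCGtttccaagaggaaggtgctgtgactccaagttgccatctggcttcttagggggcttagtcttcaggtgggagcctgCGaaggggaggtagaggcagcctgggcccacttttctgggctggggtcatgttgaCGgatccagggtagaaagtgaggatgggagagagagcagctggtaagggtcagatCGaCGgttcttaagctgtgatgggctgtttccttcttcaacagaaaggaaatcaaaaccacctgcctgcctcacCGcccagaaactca
Tet1: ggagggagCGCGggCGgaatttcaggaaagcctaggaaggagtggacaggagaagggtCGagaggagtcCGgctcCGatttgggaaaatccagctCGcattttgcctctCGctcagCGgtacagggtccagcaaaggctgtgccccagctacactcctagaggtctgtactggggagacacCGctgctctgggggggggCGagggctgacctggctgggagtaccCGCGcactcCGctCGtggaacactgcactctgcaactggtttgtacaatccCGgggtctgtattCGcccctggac
Tet2: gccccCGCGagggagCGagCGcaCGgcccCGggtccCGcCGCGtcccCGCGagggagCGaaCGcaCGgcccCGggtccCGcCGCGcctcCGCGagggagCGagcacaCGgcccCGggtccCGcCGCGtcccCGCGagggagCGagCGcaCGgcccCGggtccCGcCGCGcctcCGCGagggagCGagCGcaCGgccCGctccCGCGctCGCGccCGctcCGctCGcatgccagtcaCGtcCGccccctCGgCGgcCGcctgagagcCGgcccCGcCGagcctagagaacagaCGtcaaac
The Dnmt3b window holds 30 CpGs, that of Tet1 17 and that of Tet2 57, against a median of 7 over the 32851 promoter windows of the same length. The Dnmt3l window shown holds 6 CpGs, and its other annotated starts hold 4 and 3, so Dnmt3l is the 1 member of the 10 with every annotated start under that median, among 17 windows in all. The 6 bases GGGCGG, read on either strand, occur in 13 of the 17 windows and in 35.7% of all windows. Also searched were TTCCCGC, in 1 of the 17 and 4.6% of all windows, and ATGCAAAT, in 0 of the 17 and 1.74% of all. The 17 windows are not independent, since some genes have several and Dnmt3a windows 1 and 2 overlap. Methylation of these windows was not measured, and a match of letters is a description of the window only.

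Most of the enzyme genes were far lower in fibroblasts than in stem cells. In the comparison of WT MEFs with WT mESCs, 6 of the 10 genes were lower and 1 was higher at the 0.05 threshold for adjusted p (quasi-likelihood F test of edgeR), in a comparison in which 53.9% of the 19326 genes tested were called. Of all genes tested, 27.1% were called lower and 26.8% higher. Every WT MEF library was below both WT mESC libraries in 6 of the 10 and above them in 2, patterns found in 37.6% and 34.7% of genes tested. Without the libraries with few Y-linked reads the same 7 genes were called in the same directions, and 40.8% of genes. The median log2 difference of the 10 genes was -2.34, against 0.00 for all genes tested. The 15 proliferation genes were also lower in WT MEFs, with 9 called lower and none higher, and summed to between 959 and 1714 CPM there against 3361 and 5201 CPM in WT mESCs. Their part in the differences of the enzyme genes was not tested.

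**Figure D1:**
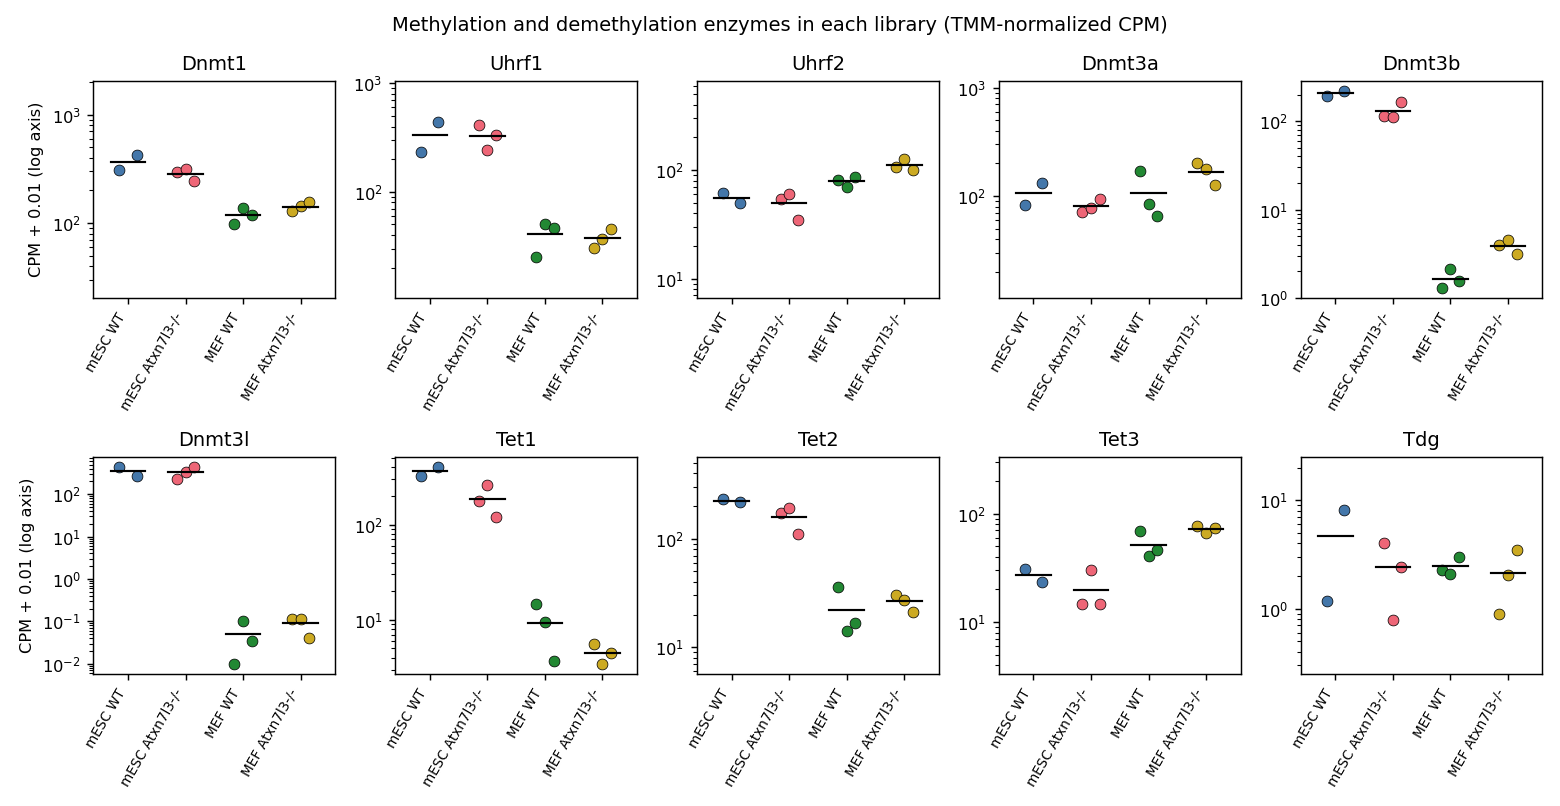
Level of each enzyme gene in every library, as CPM with 0.01 added on a log axis that differs between panels, grouped by cell type and genotype, with a bar at the mean of each group. Dnmt3b, Dnmt3l, Tet1, Tet2 and Uhrf1 lie far lower in all MEF libraries than in all mESC libraries. Dnmt1 also lies lower in all MEF libraries, whereas Dnmt3a, Uhrf2 and Tet3 do not.

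The maintenance genes split. Dnmt1 (chr9:20907209-20959888, minus strand), which encodes the maintenance methyltransferase, was at 310.5 and 424 CPM in WT mESCs and at 98.5, 138 and 118 CPM in WT MEFs. The groups did not overlap, and the difference was -1.64 ± 0.22 (log2, SE; adjusted p = 0.000209). Uhrf1 (chr17:56303321-56323486, plus strand), which encodes the reader of hemimethylated DNA, was at 235 and 437.5 CPM in WT mESCs and at 25.2, 50.7 and 46.3 CPM in WT MEFs. It differed by -3.05 ± 0.37 (adjusted p = 0.000105), about 8.26-fold on the fitted scale, although 15.4% of its 50-base stretches also occur in other genes, chiefly Gm5648. Uhrf2 (chr19:30030513-30093722, plus strand), the relative of Uhrf1 that does not take its place in maintenance, was at 61.7 and 49.5 CPM in WT mESCs and at 80.9, 70.3 and 85.7 CPM in WT MEFs. All 3 MEF libraries were above both mESC libraries, and the difference of 0.51 ± 0.26 did not pass the test (adjusted p = 0.122).

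The genes of de novo methylation diverged most. Dnmt3b (chr2:153649450-153687730, plus strand) was at 194 and 221 CPM in WT mESCs and at 1.28, 2.09 and 1.56 CPM in WT MEFs, a difference of -6.98 ± 0.32 (adjusted p = 1.22e-06). Dnmt3l (chr10:78041947-78063622, plus strand) had 22636 and 13008 counts in the WT mESC libraries and 0, 3 and 1 counts in the WT MEF libraries. Pooled over libraries its level was 10800-fold higher in WT mESCs, with an exact 95% counting interval of 4210 to 39500, which covers counting error only. Dnmt3a (chr12:3806007-3914443, plus strand), the other active de novo enzyme, was at 83.4 and 131 CPM in WT mESCs and at 169.7, 84.0 and 66.0 CPM in WT MEFs. Its groups overlapped, with WT MEF replicate 1 above both mESC libraries, and the difference was -0.01 ± 0.38 (adjusted p = 0.983).

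The 3 genes for the TET dioxygenases also went different ways. Tet1 (chr10:62804570-62908996, minus strand) was at 328 and 408 CPM in WT mESCs and at 14.8, 9.51 and 3.68 CPM in WT MEFs, a difference of -5.30 ± 0.53 (adjusted p = 3.31e-05). Tet2 (chr3:133463679-133545139, minus strand) was at 232 and 217 CPM against 35.7, 14.0 and 16.6 CPM, a difference of -3.34 ± 0.39 (adjusted p = 8.21e-05). Tet3 (chr6:83362373-83459084, minus strand), known from the oocyte and from differentiated tissues, was at 31.1 and 23.4 CPM in WT mESCs and at 68.9, 40.4 and 45.8 CPM in WT MEFs. Every MEF library was above both mESC libraries, and the difference of 0.92 ± 0.36 lay at the threshold (adjusted p = 0.0499). That call was lost with the replicate number as a block (adjusted p = 0.0584, where 47.3% of genes were called), and it held in 7 of 21 alternative analyses, while the 6 lower calls held in every alternative in which the gene was tested.

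Levels were compared between genes per kilobase of transcript. The median transcript length given in the tables is short for several members (908 bases for Tet1 and 821 bases for Dnmt3a, where the longest annotated transcripts have 14369 and 9685 bases), so the order uses the longest annotated transcript, a choice made after seeing the data. In WT mESCs Dnmt3l was highest at 192 ± 63.6 CPM per kb (SD, n = 2), followed by Uhrf1 at 93.8 ± 39.9, Dnmt1 at 62.5 ± 13.7, Dnmt3b at 48.0 ± 4.29, Tet1 at 25.6 ± 3.91, Tet2 at 24.5 ± 1.12, Uhrf2 at 15.7 ± 2.43, Dnmt3a at 11.1 ± 3.51, Tet3 at 2.499 ± 0.4992 and Tdg at 1.32 ± 1.40. The place of Tdg in the order is uncertain, because its reads are split with a near-identical gene, as described further on. The library ranges of Uhrf1 and Dnmt1, of Tet1 and Tet2 and of Tet3 and Tdg overlapped. Tet1 and Tet2 changed places between the libraries, as did Tet3 and Tdg, so the order within these pairs is not settled. Uhrf1 was above Dnmt1 in each library, at 65.5 against 52.9 CPM per kb in replicate 1 and 122 against 72.2 in replicate 2. In WT MEFs Uhrf2 at 22.3 ± 2.24 CPM per kb (SD, n = 3) and Dnmt1 at 20.1 ± 3.35 led with overlapping ranges, Uhrf1 at 11.4 ± 3.79 and Dnmt3a at 11 ± 5.72 came next, and Dnmt3l was last at 0.0216 ± 0.0266. On the median transcript length of the tables Tet1 was first in WT mESCs, at 406 ± 61.9 CPM per kb, and Dnmt3a first in WT MEFs, at 129.8 ± 67.6 CPM per kb, so the order between genes depends on the length used. Per kb of the longest transcript Dnmt3b was above Dnmt3a in WT mESCs, and on the median length it was below, at 50.6 ± 4.52 against 131 ± 41.4 CPM per kb, while in WT MEFs Dnmt3a was above Dnmt3b on both lengths.

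**Figure D2:**
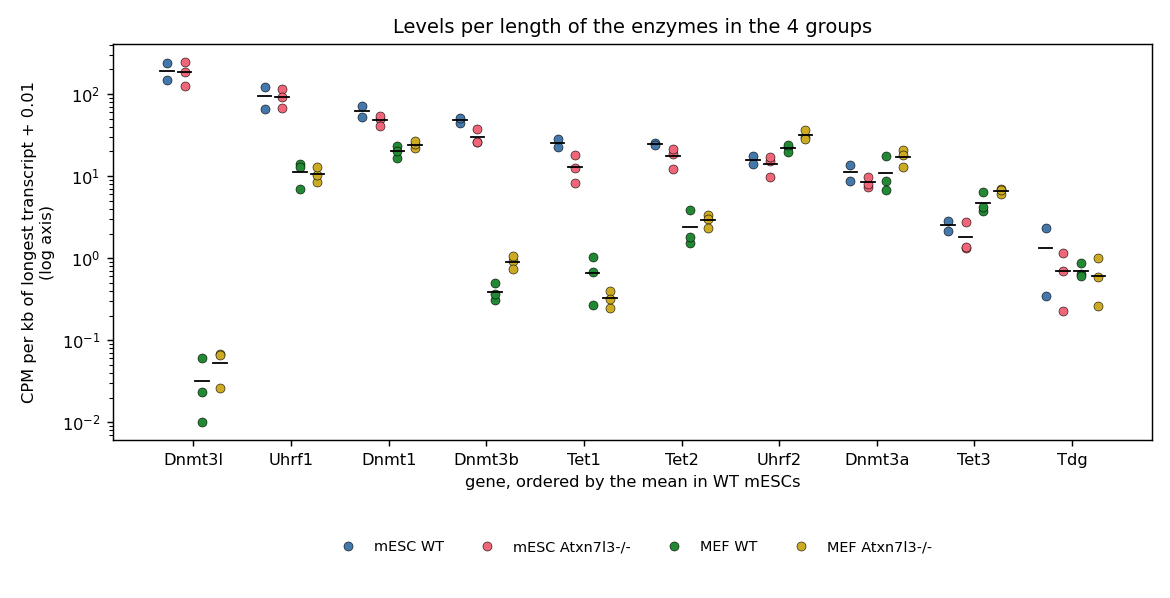
CPM per kb of the longest annotated transcript, with 0.01 added on a log axis, for each gene in each library of the 4 groups, with a short line at the group mean. In mESCs the genes span from Dnmt3l at 192 in WT to Tet3 and Tdg near 1 to 3, whereas in MEFs Uhrf2, Dnmt1, Dnmt3a and Uhrf1 are the highest in both genotypes and Dnmt3l is the lowest. The place of Tdg is uncertain because of reads shared with Gm9855.

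Loss of ATXN7L3 in mESCs was accompanied by lower mean levels of most of these RNAs, but no difference passed the test over all genes. With edgeR, 0 of the 10 genes were called, in a comparison in which 6.96% of 17800 genes tested were called. The unadjusted p was under 0.05 for 2 of them, Tet1 and Dnmt3b. DESeq2 called 1, Tet1, and 19.2% of the genes tested. With no filter on low counts 1 was called, Tet1, and 9.63% of genes, and with the GC trend and the replicate block together 1, Dnmt3b, and 9.95% of genes. The log2 difference was below 0 for 8 of the 10, with a median of -0.39 against 0.04 over all genes tested. The share of all genes below 0 was not counted. These 8 include Tdg (-0.87), whose counts could not be read as its level, as described further on. They also include Uhrf2 (-0.12), whose sign reversed in 5 of 16 alternative analyses. In 3 genes, Dnmt3b, Tet1 and Tet2, every Atxn7l3-/- library was below both WT libraries, a pattern found in 26.7% of all genes tested.

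Among the de novo genes, Dnmt3b was at 194 and 221 CPM in WT mESCs and at 113, 112 and 163.5 CPM in Atxn7l3-/- mESCs. Replicate 3 of the knockout was the closest to WT, and the difference was -0.63 ± 0.23 (adjusted p = 0.124). Leaving out knockout replicate 3 made it -0.84 (adjusted p = 0.0440), and leaving out knockout replicates 1 and 2, the libraries with few Y-linked reads, made it -0.26 (adjusted p = 0.438). Dnmt3a was at 83.4 and 131 CPM in WT and at 71.0, 78.3 and 94.4 CPM in knockout mESCs, with overlapping groups (-0.35 ± 0.24, adjusted p = 0.370). Dnmt3l was at 431 and 267 CPM in WT and at 232, 336 and 449 CPM in knockout mESCs, and each group covered much of the range of the other (0.00 ± 0.33, adjusted p = 0.997).

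Of the TET genes, Tet1 had the largest difference in mESCs. Tet1 was at 328 and 408 CPM in WT mESCs and at 178, 259 and 119.8 CPM in Atxn7l3-/- mESCs. Knockout replicate 3 was the lowest, and the difference was -0.95 ± 0.30 (adjusted p = 0.0874). Without knockout replicate 2 it was -1.22 (adjusted p = 0.0400), and without the libraries with few Y-linked reads, which left replicate 3 as the lone knockout library, it was -1.54 (adjusted p = 0.00849). Tet2 was at 232 and 217 CPM in WT and at 172, 194 and 112 CPM in knockout mESCs, a difference of -0.45 ± 0.24 (adjusted p = 0.255) that became -0.93 (adjusted p = 0.0286) in the same reduced fit. That fit called 2 of the 10 genes and 20.8% of all genes tested, and it assumes that the lone library varies as the others do. Tet3, at 31.1 and 23.4 CPM against 14.6, 30.3 and 14.6 CPM, overlapped between genotypes (-0.42 ± 0.36, adjusted p = 0.461).

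The maintenance genes showed no difference beyond their spread in mESCs. Dnmt1 was at 310.5 and 424 CPM in WT and at 295, 314 and 242.5 CPM in knockout mESCs (-0.32 ± 0.21, adjusted p = 0.334). Uhrf1, at 235 and 437.5 CPM in WT and 413.5, 241 and 333 CPM in knockout, differed by 0.03 ± 0.33 (adjusted p = 0.961), and Uhrf2 by -0.12 ± 0.27 (adjusted p = 0.799). In the same libraries 1 of the 10 MEF markers was called, Col1a1 (9.63 and 47.5 CPM in WT, 141 to 189 CPM in knockout). With the replicate block, which called 8.06% of genes, Col1a2, Col3a1 and Prrx1 also passed (adjusted p = 0.0110, 0.00626 and 0.0127). Vim (-0.20), Pdgfra (0.04), Pdgfrb (0.13), Thy1 (0.37), Fn1 (0.99) and Twist1 (1.38) passed in neither fit (log2 differences of the main fit). The part of residual feeder RNA in the differences of the enzyme genes was not tested.

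**Figure D3:**
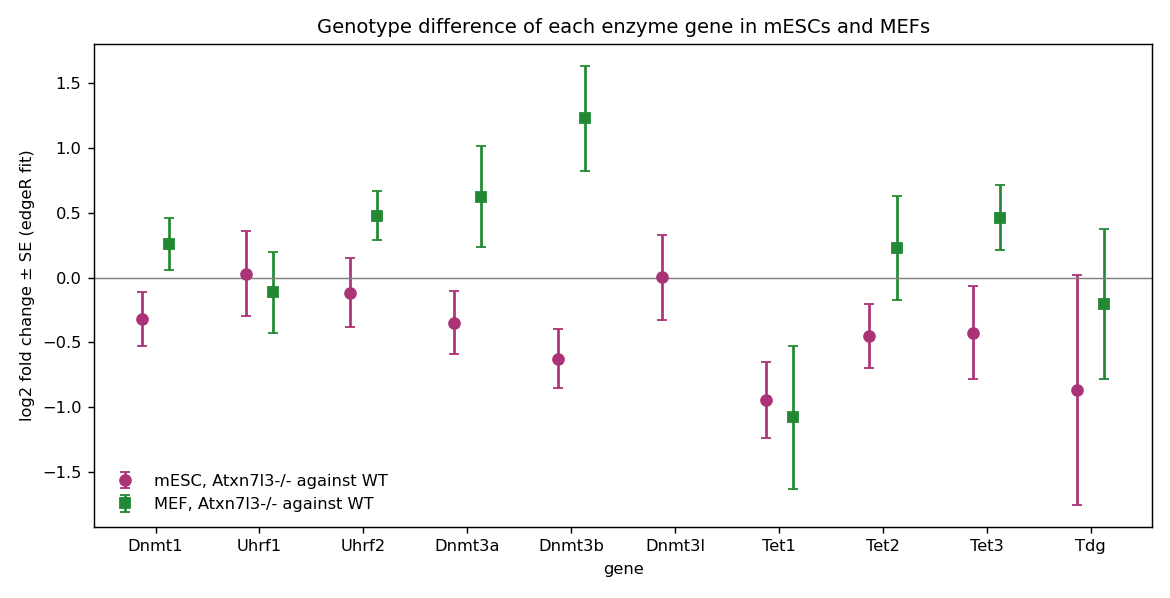
Log2 fold change of Atxn7l3-/- against WT with its standard error from the edgeR fit, for each gene in mESCs (circles) and MEFs (squares). Dnmt3l has no value in MEFs because its counts were too low to test. Dnmt3b lies at -0.63 in mESCs and at 1.23 in MEFs, and Tet1 lies near -1 in both.

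In MEFs the mean differences were small or upward except for Tet1. Of the 10 genes, 9 had enough counts to be tested and Dnmt3l, with 0 to 4 counts per MEF library, had not. With edgeR, 0 of the 9 were called, where 9.41% of 15958 genes tested were called. The unadjusted p was under 0.05 for 2, Dnmt3b and Uhrf2. DESeq2 called 1, Dnmt3b, and 24.7% of the genes tested. In 2 genes, Dnmt3b and Uhrf2, every culture labelled Atxn7l3-/- was above every WT culture, a pattern found in 20.1% of all genes tested. Without the library with few Y-linked reads 0 of the genes were called, and 1.2% of all genes tested.

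Dnmt3b was at 1.28, 2.09 and 1.56 CPM in WT MEFs and at 3.95, 4.57 and 3.17 CPM in MEFs labelled Atxn7l3-/-. Both groups stayed near the bottom of its range, far under the 112 to 221 CPM of the mESC libraries, but they did not overlap and the difference was 1.23 ± 0.40 (adjusted p = 0.0946). Its neighbour Dnmt3c, which shares 9.81% of the 50-base stretches of Dnmt3b, was at 0 to 0.0731 CPM in MEFs. DESeq2 gave 1.25 (adjusted p = 0.00813), and 1 fit of all 11 libraries gave 1.25 (adjusted p = 0.00959), a fit that called 18.5% of genes. Of the 7 stem cell markers 4 could be tested in MEFs, with a median log2 difference of -0.71, and 1 was called, Tfcp2l1, which rose in the same cultures from between 1.07 and 1.56 CPM to between 27.2 and 75.0 CPM. The other 3 had values below 0, at -3.38 ± 1.70 for Sox2 (adjusted p = 0.214, and 0.0411 with the replicate block), -1.02 ± 0.43 for Klf4 (adjusted p = 0.153) and -0.39 ± 0.44 for Nanog (adjusted p = 0.554).

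Dnmt3a was at 169.7, 84.0 and 66.0 CPM in WT MEFs and at 200, 177.5 and 126 CPM in MEFs labelled Atxn7l3-/-. WT replicate 1 reached into the knockout range, and the difference of 0.63 ± 0.39 did not pass (adjusted p = 0.302). Uhrf2, at 80.9, 70.3 and 85.7 CPM in WT and at 106, 128 and 99.7 CPM in knockout, differed by 0.48 ± 0.19 (adjusted p = 0.138). Dnmt1 differed by 0.26 ± 0.20 (adjusted p = 0.397) and Uhrf1 by -0.11 ± 0.31 (adjusted p = 0.824), with overlapping groups for both. The proliferation genes, by contrast, summed to 1812 CPM or more in knockout and 1714 CPM or less in WT MEFs. Of the 15, 1 was called, Mki67 (1.202 ± 0.2632, adjusted p = 0.0411), a call lost without WT replicate 3. With the replicate block, which called 14% of genes, the adjusted p was 0.0318 for Mki67 and 0.0322 for Ccnb1. It was 0.0428 for Ccna2 and 0.0436 for Top2a, and above 0.05 for the other proliferation genes.

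None of the TET genes passed the test in MEFs. Tet1 was at 14.8, 9.51 and 3.68 CPM in WT and at 5.56, 3.45 and 4.48 CPM in MEFs labelled Atxn7l3-/-. WT replicate 3 fell within the knockout range, and the difference was -1.08 ± 0.55 (adjusted p = 0.221). Tet2 was at 35.7, 14.0 and 16.6 CPM in WT and at 30.5, 27.5 and 21.1 CPM in MEFs labelled Atxn7l3-/- (0.23 ± 0.40, adjusted p = 0.720). Tet3, at 68.9, 40.4 and 45.8 CPM in WT and at 76.7, 66.9 and 73.3 CPM in knockout, missed separation because of WT replicate 1 (0.46 ± 0.25, adjusted p = 0.244). The 6 macrophage markers summed to between 839 and 6085 CPM in knockout and between 520 and 1046 CPM in WT MEFs. Most of each sum was Lyz2, at 718 to 5382 CPM in knockout and 350 to 674 CPM in WT. None of the 6 was called. The log2 differences were 2.36 for Lyz2, 0.92 for Cd68, 0.74 for Ptprc and 0.28 for Adgre1, against -0.04 for Tyrobp and -0.15 for Csf1r. The part of macrophages in the TET values was not tested.

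Whether the genotype difference depended on the cell type was tested by the interaction of both in 1 fit of all 11 libraries. Of the 10 genes, 1 was called, Dnmt3b, where 11.4% of the genes tested were called. Its difference in MEFs minus that in mESCs was 1.93 ± 0.36 (log2, SE; adjusted p = 0.0121), every mESC knockout library lying below WT and every MEF library labelled Atxn7l3-/- above. With the replicate number as a block, it was 2.14 (adjusted p = 0.0184) and 7.15% of genes were called. The call was lost without WT mESC replicate 1 (2.03, adjusted p = 0.0523), without WT mESC replicate 2 (1.85, adjusted p = 0.0674), which both leave a lone WT mESC library, and without the libraries with few Y-linked reads (1.57, adjusted p = 0.130), a fit that called 0.308% of genes. Neither side passed on its own, and the mean level was 207.5 CPM in WT and 129.6 CPM in Atxn7l3-/- mESCs against 1.64 and 3.89 CPM in MEFs.

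For the other 9 genes the interaction did not pass. It was 1.06 ± 0.51 for Dnmt3a (adjusted p = 0.186), 0.94 ± 0.47 for Tet3 (adjusted p = 0.198) and 0.64 ± 0.30 for Dnmt1 (adjusted p = 0.178). Tet1, which was lower on average in the knockouts of both cell types, had an interaction of -0.07 ± 0.65 (adjusted p = 0.954), an error too wide to show that its difference was alike in both. Leaving out WT MEF replicate 1 added calls for Dnmt3a (1.57, adjusted p = 0.0342) and Tet2 (1.30, adjusted p = 0.0457), and leaving out knockout mESC replicate 2 added a call for Tet3 (1.38, adjusted p = 0.0411).

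Tdg (chr10:82629828-82650799, plus strand), the glycosylase gene, had low and uneven counts that could not be read as its level. It had 61 and 395 counts in the WT mESC libraries and 158, 36 and 107 in the knockout mESC libraries. Gm9855, listed on chromosome 10 at 42054113 to 42055306, had 319 and 3 counts in WT and 102, 296 and 238 in knockout mESCs, high where Tdg was low. Of the 50-base stretches of Tdg transcripts 41.2% occur in other annotated genes, and 76.5% of those of Gm9855 occur in Tdg, so reads of one may be counted for the other or for neither. Summed, they were far more even, at 7.24 and 8.18 CPM in WT mESCs and 6.67, 7.10 and 7.75 CPM in knockout mESCs. In MEFs the sum was 4.50, 4.24 and 5.26 CPM in WT and 5.91, 7.40 and 6.18 CPM in cultures labelled Atxn7l3-/-. Each knockout culture was above each WT culture in the sum, whereas Tdg alone, at 2.24, 2.09 and 3.00 CPM in WT and 0.874, 2.02 and 3.47 CPM in knockout, overlapped. The fitted MEF difference was -0.20 ± 0.58 for Tdg alone (adjusted p = 0.828) and 0.46 for both counted together (adjusted p = 0.361). No Tdg call was made in any of the 4 comparisons.

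**Figure D4:**
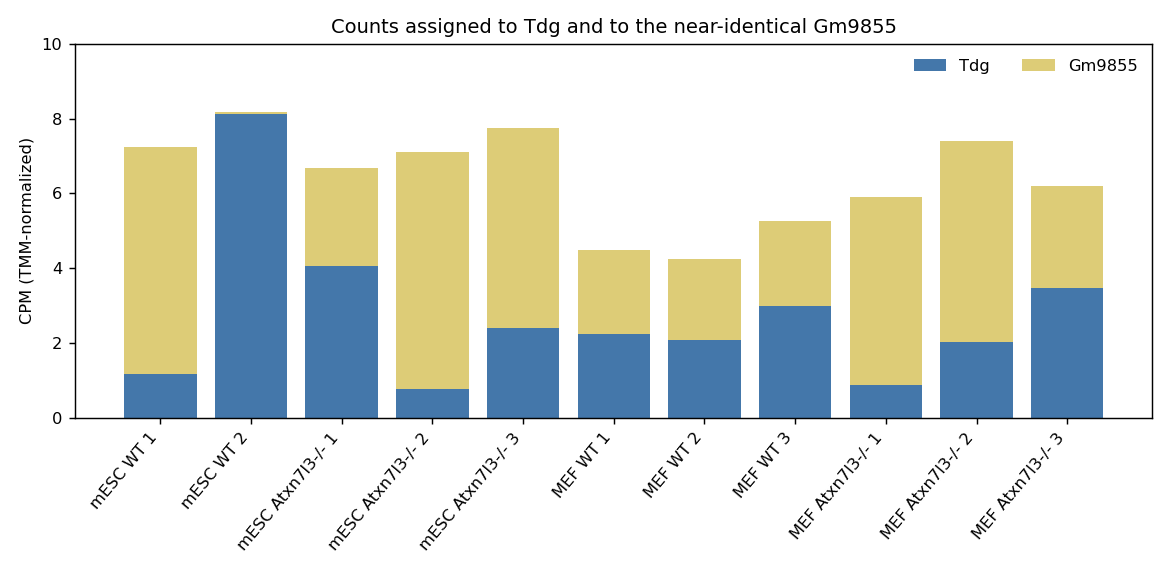
CPM assigned to Tdg and to Gm9855, stacked, in each of the 11 libraries. The split between the 2 differs widely between libraries, from nearly all Tdg in WT mESC replicate 2 to nearly all Gm9855 in knockout mESC replicate 2, while the summed height stays between 4.24 and 8.18 CPM.

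Some partners of these enzymes were called in the genotype comparisons. Over all genes tested 3.08% were called higher and 3.88% lower in mESCs, and 5.01% higher and 4.39% lower in MEFs. Hells, which encodes the chromatin remodeler that works with maintenance methylation, was at 395 and 596 CPM in WT mESCs and at 200, 258 and 193 CPM in knockout mESCs. It was lower there, with a log2 difference of -1.142 ± 0.2292 (adjusted p = 0.0341). In MEFs Hells was at 35.7, 29.2 and 38.6 CPM in WT and 72.8, 103 and 65.3 CPM in cultures labelled Atxn7l3-/-, a rise of 1.203 ± 0.2423 (adjusted p = 0.0351, and 0.0508 with the replicate block). It was the 1 called of 8 maintenance partners tested in mESCs and of 7 in MEFs, and its interaction of 2.41 ± 0.36 was called (adjusted p = 0.00535). Like Dnmt3b it was lower in every knockout mESC library and higher in every MEF library labelled Atxn7l3-/-. It kept its call in mESCs without the libraries with few Y-linked reads, and lost it in MEFs and in the interaction.

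**Figure D5:**
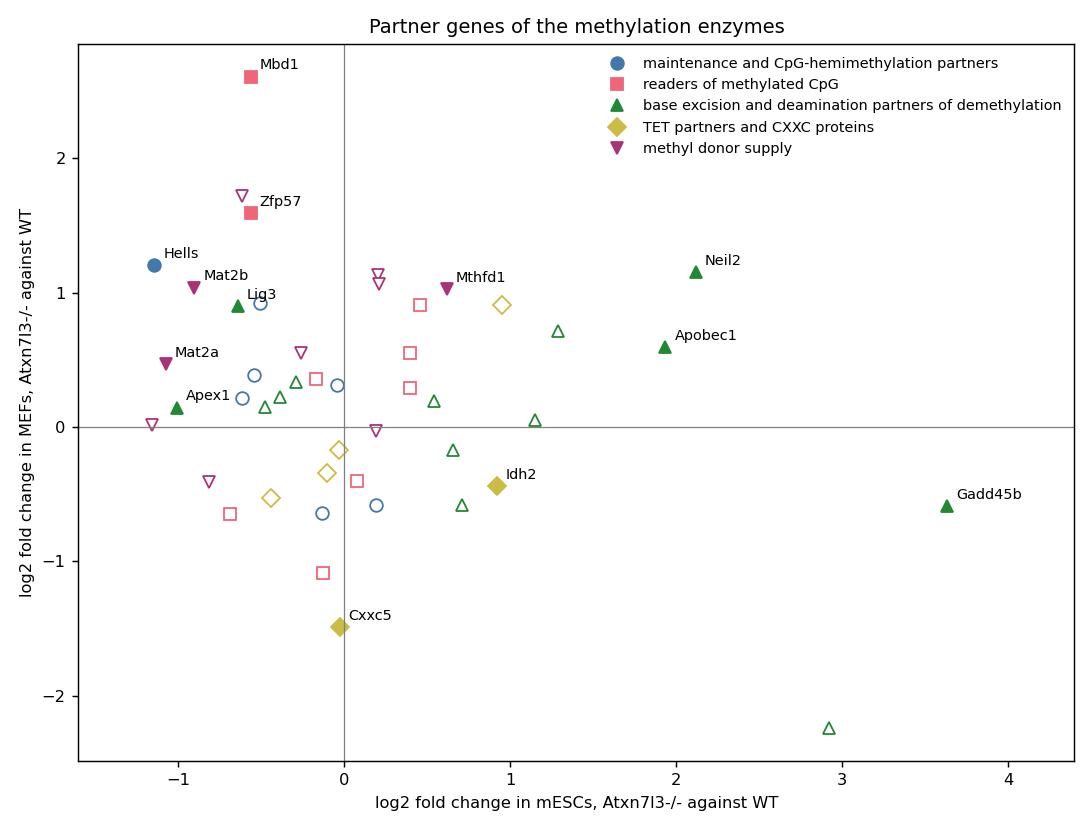
Log2 fold change of Atxn7l3-/- against WT in mESCs (horizontal) and MEFs (vertical) for the partner genes of 5 lists that were tested in both cell types. Filled and named symbols passed an adjusted p of 0.05 in at least 1 cell type. Of these, Hells, Mat2a, Mat2b, Mbd1, Zfp57, Lig3 and Apex1 lie to the left of 0 in mESCs and above 0 in MEFs.

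Of the 9 readers of methylated CpG, 2 rose in MEFs, and in mESCs the smallest adjusted p was that of Zfp57 (-0.56 ± 0.18, adjusted p = 0.0921). Mbd1, a methyl-CpG binding protein gene, was at 65.7, 51.3 and 59.6 CPM in WT MEFs and 508, 340 and 249 CPM in MEFs labelled Atxn7l3-/- (2.61 ± 0.30, adjusted p = 0.0101). Zfp57, whose product protects methylation at imprinted sites, was at 31.8, 24.4 and 35.2 CPM in WT and 94.0, 106 and 79.4 CPM in MEFs labelled Atxn7l3-/- (1.59 ± 0.22, adjusted p = 0.0150). Both were above WT in all 3 cultures labelled Atxn7l3-/-. Neither was called in MEFs without WT replicate 3, a fit that called 1.2% of all genes.

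On the demethylation side, 3 of 15 base excision and deamination partners rose and 1 fell in mESCs, and 1 of 14 tested rose in MEFs. Neil2, a DNA glycosylase gene, went from 6.63 and 6.41 CPM in WT to 26.9, 20.5 and 34.3 CPM in knockout mESCs (2.12 ± 0.32, adjusted p = 0.0230). Apobec1, a cytidine deaminase gene, rose by 1.94 ± 0.27 (adjusted p = 0.0211) and Apex1, the gene of the abasic site endonuclease, fell by 1.01 on the log2 scale (SE 0.20, adjusted p = 0.0342). Gadd45b, a stress gene linked to demethylation, was the third that rose and varied widely, at 22.2 and 17.6 CPM in WT and 313, 49.1 and 346 CPM in knockout mESCs. In MEFs Lig3, a DNA ligase gene, rose by 0.90 ± 0.17 (adjusted p = 0.0314). Of the TET partners and CXXC proteins, 1 of 7 tested rose in mESCs (Idh2, 0.92 ± 0.21, adjusted p = 0.0430) and 1 of 7 fell in MEFs (Cxxc5, -1.49 ± 0.31, adjusted p = 0.0382). The MEF calls of Lig3 and Cxxc5 were lost without WT replicate 3.

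Genes that supply the methyl donor S-adenosylmethionine were called in both cell types. In mESCs 2 of 10 fell. Mat2a, the catalytic subunit of methionine adenosyltransferase, went from 314 and 355 CPM in WT to 155.5, 165 and 141 CPM (-1.07 ± 0.17, adjusted p = 0.0246), and Mat2b, its regulatory subunit, fell by 0.90 on the log2 scale (SE 0.18, adjusted p = 0.0341). In MEFs 2 of 10 rose, Mthfd1 of the folate cycle (1.03 ± 0.20, adjusted p = 0.0325) and Mat2b (1.04 ± 0.23, adjusted p = 0.0411). Without WT replicate 3, the MEF library with few Y-linked reads, neither MEF call remained, in a fit that called 1.2% of all genes. The sum over the 10 genes was 1601 and 1906 CPM in WT and 1320 to 1397 CPM in knockout mESCs, and 634 to 848 CPM in WT and 936 to 1219 CPM in MEFs labelled Atxn7l3-/-.

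Of the germline genes known to be held silent by promoter methylation, 2 of 15 fell in mESCs, Mael (-2.46 ± 0.50, adjusted p = 0.0342) and Sycp1 (-2.85 ± 0.67, adjusted p = 0.0470), and the list summed to 914 and 459 CPM in WT and 389, 391 and 123 CPM in knockout. Without the libraries with few Y-linked reads 9 of the 15 fell, in a fit that called 20.8% of genes. In MEFs 2 of the 15 had enough counts to be tested, and 1 rose, Ddx4, from 0.387, 1.37 and 0.438 CPM in WT to 106, 347.5 and 93.9 CPM in knockout (7.98 ± 0.88, adjusted p = 0.00936). The whole list summed to between 2.22 and 5.68 CPM in WT MEFs and to between 96.8 and 352 CPM in the cultures labelled Atxn7l3-/-, where Ddx4 made up nearly all of it.

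The genes most like each member over the 11 libraries were found by Pearson's r of log2 CPM among 19326 genes, as a description, since the libraries fall into 2 cell types and share their cell type's differences. Dnmt1 was closest to the replication genes Mcm7 (r = 0.99) and Mcm10 (r = 0.99), and Uhrf1 to Rcc1 (r = 0.99) and Bud13 (r = 0.99). Dnmt3b was closest to Arl14epl (r = 0.99) and Palb2 (r = 0.99), and Dnmt3l to Slc17a9 (r = 0.998) and 4930566F21Rik (r = 0.997). Tet1 was closest to Hdhd5 (r = 0.99) and B3gntl1 (r = 0.99), Tet2 to Naa40 (r = 0.99), and Tet3 to Mbd5 (r = 0.98) and B430305J03Rik (r = 0.98). For Uhrf2 these were Maoa (r = 0.98) and Mlkl (r = 0.98), for Dnmt3a Ap1s3 (r = 0.92) and Adamts9 (r = 0.91), and for Tdg Hist1h1b (r = 0.80) and Gm13394 (r = 0.77).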

How the data were processed

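Per the submitters' processing notes, reads were handled with bcl2fastq 2.17.1.14, cutadapt 1.10, STAR 2.5.3a on mm10, HTSeq 0.6.1p1 and DESeq2 1.16.1. The authors deposited, for each cell type, a table of raw counts per gene, of signal normalized by size factors and of that signal per kb of median transcript length. The kit marks strand, but whether counting used strand, and the annotation, are not given in the sources used here. The deposited fold changes and p-values of the authors' own comparison were not used. Counts were tested with edgeR 4.0.16 in R 4.3.3 (filterByExpr, TMM, quasi-likelihood test, Benjamini-Hochberg adjustment over all genes tested). Genotype was tested within each cell type, and the WT comparison and the interaction in 1 fit of 4 groups. Log2 CPM for the correlations and the GC trend used a prior count of 2. Alternatives were DESeq2 1.42.0, other normalizations and filters, a GC trend, the replicate block and leaving out libraries. The code was tested on simulated data. There, 2-fold changes were called in 12 of 68 genes for mESCs, 0 of 68 for MEFs and 0 of 68 for the interaction. Of 16-fold changes, 64, 57 and 40 of 66 were called. Fewer genes were changed there than were called in the data, so these shares do not carry over directly. Intervals on pooled counts are exact and cover counting error only.

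The genes described and the partner and marker lists were chosen with earlier results of these data known. The text names all 10 enzyme genes, up to 3 called genes with the smallest adjusted p of each partner list, and the 2 genes most correlated with each enzyme gene, of which 1 is not reported here. The MEF and macrophage markers, Tfcp2l1, Sox2, Klf4, Nanog and Gadd45b were named after their values were seen. So were Dnmt3c, Gm9855, Ccna2 and the genes with a called interaction. Coordinates are on mm10, from the tables. Same-numbered MEF libraries deviated together (r = 0.41, 0.15 and 0.19 over 19326 genes). The mESC pairs did not (r = -0.00080 and -0.16). The main fits held no replicate block in either cell type, so they do not use any pairing of the MEF cultures. The block was run as an alternative.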

Additional observations from a re-analysis of the deposited data

Results flagged for a closer look

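The genotype difference in MEFs minus that in mESCs passed the test for 16 of the genes in the enzyme, partner and proliferation lists (edgeR's quasi-likelihood test, log2 scale). Of all 19326 genes tested, 11.4% passed. Tested were 10 enzyme genes, 8 maintenance partners, 9 readers, 15 base excision and deamination partners and 8 TET partners and CXXC proteins. The other lists held 10 methyl donor genes, 2 related methyltransferases, 13 germline genes and 15 proliferation genes that were tested. Of the enzyme genes this was Dnmt3b, at 1.93. Of the partners of maintenance and the readers these were Hells at 2.41, Mbd1 at 3.23 and Zfp57 at 2.22. On the demethylation side these were Lig3 at 1.60, Apex1 at 1.21, Gadd45b at -4.15, Gadd45g at -5.10 and Cxxc5 at -1.40. Of the methyl donor genes these were Mat2a at 1.61, Mat2b at 2.00 and Shmt1 at 2.39, and of the germline genes Ddx4 at 9.37. Of the proliferation genes these were Mki67 at 1.49, Ccnb1 at 1.71 and Top2a at 1.74. With the replicate block the calls of Apex1 (adjusted p = 0.0793), Cxxc5 (adjusted p = 0.0616) and Top2a (adjusted p = 0.0546) were lost. Without the libraries with few Y-linked reads, Gadd45b was the 1 partner gene still called.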

How the results depend on the processing

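No member was called in mESCs or MEFs with edgeR. In mESCs 1 was called with no filter, with DESeq2 and with the GC trend and replicate block together, 2 without the libraries with few Y-linked reads, and 0 to 1 when 1 library was left out. In MEFs 1 was called with DESeq2 and in 1 fit of all 11 libraries. For the interaction 0 were called without the libraries with few Y-linked reads and 0 to 3 when 1 library was left out. Over all genes, against 1238 calls in mESCs there were 2995 with no filter, 3426 with DESeq2, 446 in 1 fit of all libraries and 3890 without the libraries with few Y-linked reads. Against 1501 in MEFs there were 3936 with DESeq2, 2232 with the replicate block and 846 with at least 10 counts in every library. There were 3569 in 1 fit and 197 without WT replicate 3. Against 2205 for the interaction there were 4246 with DESeq2, 1381 with the replicate block, 1113 with the GC trend and block, and 62 without the libraries with few Y-linked reads, and against 10423 between WT groups 6455 with at least 10 counts. The mESC replicate numbers are shared names only, and the block gave 1435 calls there.

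Directions reversed for values that were not called. In mESCs Dnmt3l was at -0.021 (RLE), -0.040 (upper quartile), -0.033 (at least 10 counts), -0.021 (DESeq2), -0.25 (replicate block), -0.092 (GC trend), -0.36 (GC trend and block) and -0.043 (1 fit), and Uhrf1 at -0.0011 (RLE), -0.023 (upper quartile), -0.0025 (at least 10 counts), -0.0011 (DESeq2), -0.094 (GC trend), -0.10 (GC trend and block) and -0.030 (1 fit). Uhrf2 was at 0.090 (replicate block), 0.0031 (GC trend) and 0.18 (both). In MEFs Uhrf1 was at 0.086 (GC trend) and 0.12 (GC trend and block), Tet2 at -0.077 (GC trend) and Tdg at 0.46 (with Gm9855). The interaction of Uhrf1 was at 0.21 (GC trend), 0.26 (GC trend and block) and 0.014 (few Y-linked reads left out), of Uhrf2 at -0.039 (GC trend and block) and of Tet1 at 0.19 (few Y-linked reads left out). Dnmt3a between WT groups was at 0.00022 (no filter), 0.11 (GC trend) and 0.24 (few Y-linked reads left out). Leaving out 1 library gave ranges in mESCs of -0.31 to 0.40 for Dnmt3l, -0.35 to 0.53 for Uhrf1, -0.28 to 0.082 for Uhrf2 and -1.68 to 1.096 for Tdg, in MEFs of -0.35 to 0.084 for Uhrf1 and -0.76 to 0.19 for Tdg, for the interaction of -0.59 to 0.31 for Uhrf1, -0.45 to 0.45 for Tet1 and -1.25 to 1.56 for Tdg, and between WT groups of -0.52 to 0.35 for Dnmt3a and -1.73 to 1.07 for Tdg. The causes were not tested. With 2 or 3 libraries a group, differences of the size seen for most members could not be told from the spread.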

Other observations

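Xist, the RNA that coats the inactive X chromosome, was at 335.5 CPM in WT MEF replicate 3, the MEF library with few Y-linked reads, and under 0.75 CPM in the other MEF libraries. In mESCs Xist was at 49.8 and 45.8 CPM in Atxn7l3-/- replicates 1 and 2, at 2.38 CPM in replicate 3 and at 9.71 and 23.0 CPM in WT.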
